A study of Mus musculus with 18 samples.

Results

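Respiratory chain subunits are the nuclear-encoded proteins of complexes I to IV of the mitochondrial electron transport chain and of the ATP synthase, complex V. Genes were taken by platform symbol (Nduf, Sdh followed by a to d, Uqcr, Cox4, Cox5, Cox6, Cox7 and Atp5), with 1 gene of the Cox6 series left out by the rule. A probe was kept when its detection p was below 0.05 on 3 or more arrays, and the probe with the highest mean stood for its gene. Of 88 genes with such a symbol, 84 were measured, among 11921 genes tested in the whole experiment. These were 35 genes of complex I with 7 of its assembly factors, 3 of complex II with 4 of its assembly factors, 7 of complex III, 12 of complex IV and 16 of complex V. Sdha, Ndufs1, Ndufaf6 and Cox7b2 were detected on 0 of 18 arrays and have no values here. Ndufa4l2 and Atp5g1 were not among the symbols matched and are not analysed here.

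Skeletal muscle myoblasts, the precursors that fuse into muscle fibres, came from mice of strain Gata4tm1.1Sad/J, whose Gata4 gene carries loxP sites. All 18 arrays were therefore from cells with this allele, 3 arrays in each of 6 groups. Wt cells were infected with adenovirus for a nuclear β-galactosidase, KO cells with adenovirus for Cre recombinase, and OE cells with a retrovirus for GATA4, so Wt and OE differ in the kind of virus as well as in its cargo. Day 0 cells stayed in growth medium, and day 3 cells spent 3 days in differentiation medium. The labels do not say whether replicates were separate cultures, and p-values therefore cover only array-to-array spread, which may be technical. Total RNA was read on Illumina bead arrays, and values are log2 intensities after background correction and quantile normalization. In RNA from whole cultures, fewer cells of a type and less RNA per cell cannot be told apart.

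The electron transport chain passes electrons from NADH through complex I, and from succinate through complex II, to complex III and then complex IV, which reduces oxygen. Complexes I, III and IV pump protons, and complex V uses the proton gradient to make ATP. Muscle fibres replace several complex IV subunits of other tissues with isoforms of their own, of which Cox7a1 is a heart and muscle form and Cox7a2 the widely expressed one. Cox6b2 is best known from testis, and Cox4i2 from lung and low oxygen.

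The upstream sequences of 3 complex IV isoforms are shown because these genes had the widest spans over the arrays among the isoforms. They are the 250 bases before the annotated start in RefSeq on GRCm38.p6, read 5′ to 3′ on the strand of the gene, at chr7:30183921-30184170 on the plus strand for Cox7a1, chr7:4753095-4753344 on the minus strand for Cox6b2 and chr9:79759854-79760103 on the minus strand for Cox7a2. Capitals mark a CCAAT box (CCAAT, or ATTGG on the other strand) or a GC box (GGGCGG or CCGCCC).
Cox7a1: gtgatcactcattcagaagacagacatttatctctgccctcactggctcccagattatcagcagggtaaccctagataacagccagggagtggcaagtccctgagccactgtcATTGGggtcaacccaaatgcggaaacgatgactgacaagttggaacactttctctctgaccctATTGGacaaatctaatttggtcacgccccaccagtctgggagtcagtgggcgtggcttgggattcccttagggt
Cox6b2: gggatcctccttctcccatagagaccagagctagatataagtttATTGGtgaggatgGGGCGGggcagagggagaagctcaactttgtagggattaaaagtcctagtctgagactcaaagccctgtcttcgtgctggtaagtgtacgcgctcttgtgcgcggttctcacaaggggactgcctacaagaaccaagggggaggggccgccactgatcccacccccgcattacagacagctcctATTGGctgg
Cox7a2: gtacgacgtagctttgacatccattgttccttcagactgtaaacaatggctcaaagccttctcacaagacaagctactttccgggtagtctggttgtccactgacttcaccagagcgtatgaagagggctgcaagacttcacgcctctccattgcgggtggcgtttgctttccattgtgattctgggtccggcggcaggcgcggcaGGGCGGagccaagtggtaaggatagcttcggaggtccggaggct
Cox7a1 held 2 CCAAT boxes and no GC box, Cox6b2 held 2 CCAAT boxes and 1 GC box, and Cox7a2 held 1 GC box. Of 73 members with such a sequence, 42.5% held a CCAAT box and 46.6% a GC box, beside 40.2% and 61.5% of the genes tested and 37.5% and 35.4% of all promoters of the table. These 2 motifs were added after the sequences were seen.

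Another 6 motifs were counted on both strands, and none was in the 3 sequences shown. The core of NRF1, a regulator of nuclear genes for mitochondria, was searched as CGCATGCG and was in 11% of member promoters, beside 3.33% of the genes tested and 1.75% of all promoters. The ETS site that GABP binds, CCGGAAG, was in 21.9% of member promoters, beside 14.5% and 7.83%. The E-box CAGCTG of myogenic factors was in 5.48% of member promoters, beside 14.9% of the genes tested and 14.7% of all promoters. The hypoxia core ACGTG was in 17.8%, beside 24.5% and 18.5%. The YY1 site AAGATGGCG and the ERR site TCAAGGTCA were each in 1.37% of member promoters, beside 1.19% and 0.332% of the genes tested and 0.71% and 0.422% of all promoters. These shares describe letters in the sequence, and the motifs can overlap each other.

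The arrays did not follow their labels. Correlated over all genes, the 18 arrays fell into 6 mutually closest sets of 3, and all 6 sets held more than 1 label. Only 7 of 18 arrays had an array of their own label as the closest one. Gata4, the targeted gene, was near background, detected on 5 of 18 arrays, with log2 values of 4.24 to 5.32 and detection on 1 of 3 arrays at day 0 and 0 of 3 at day 3 in OE, so it checks no label. Whether the probe reads the loxP-flanked part or the viral transcript was not stated in the labels or headers. The myoblast list (Myod1, Myf5, Des, Cdh15, Itga7 and Myog measured, Pax7 not detected) had a mean of 9.29 to 10.40 over the arrays. Of markers of other cells, 6 of 8 fibroblast genes were measured, with list means of 5.93 to 7.27 (Dcn at 5.34 to 8.79 and Thy1 at 6.24 to 9.63). Measured too were 3 of 5 endothelial genes (Tek up to 7.49), 2 of 4 smooth muscle genes (Smtn up to 11.24), 2 of 4 cardiomyocyte, 2 of 3 brown adipocyte, 1 of 5 leukocyte and 1 of 5 adipocyte genes, whereas Adipoq, Ucp1, Ptprc, Cdh5, Myh11 and Myl7 did not pass the detection rule. The part of other cells in the members' values was not tested. Probes detected per array ran from 16974 to 19966. Whether each column of the table carries the label of its own sample cannot be told from these files, so every labelled difference below holds only if the labels are right. Comparisons follow the labels, and array-by-array values are given beside them.

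Most respiratory chain members varied little over the arrays, and a few isoforms varied widely. The median SD of a member over the 18 arrays was 0.272 on the log2 scale, beside 0.333 for all genes tested, and 59 of 84 members lay below that median gene. Members were not set beside genes of like intensity, and the part of probe brightness in these SDs was not tested. An SD above 0.5 was found for 9 of 84 members and for 24.2% of all genes. These 9 were Cox7a1, Cox6b2, Ndufv3, Ndufb10, Ndufb11, Ndufb4, Ndufb9, Ndufa3 and Ndufaf3. The mean log2 intensity over all members ran from 10.39 on Wt day 3 replicate 2 to 10.95 on Wt day 3 replicate 3, so the extremes were 2 arrays of 1 label. Within a labelled group the SD of that mean was 0.189. The mean over members differed by 0.02 to 0.158 within the sets of closest arrays and by 0.124 to 0.558 within the labelled groups.

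**Figure D1:**
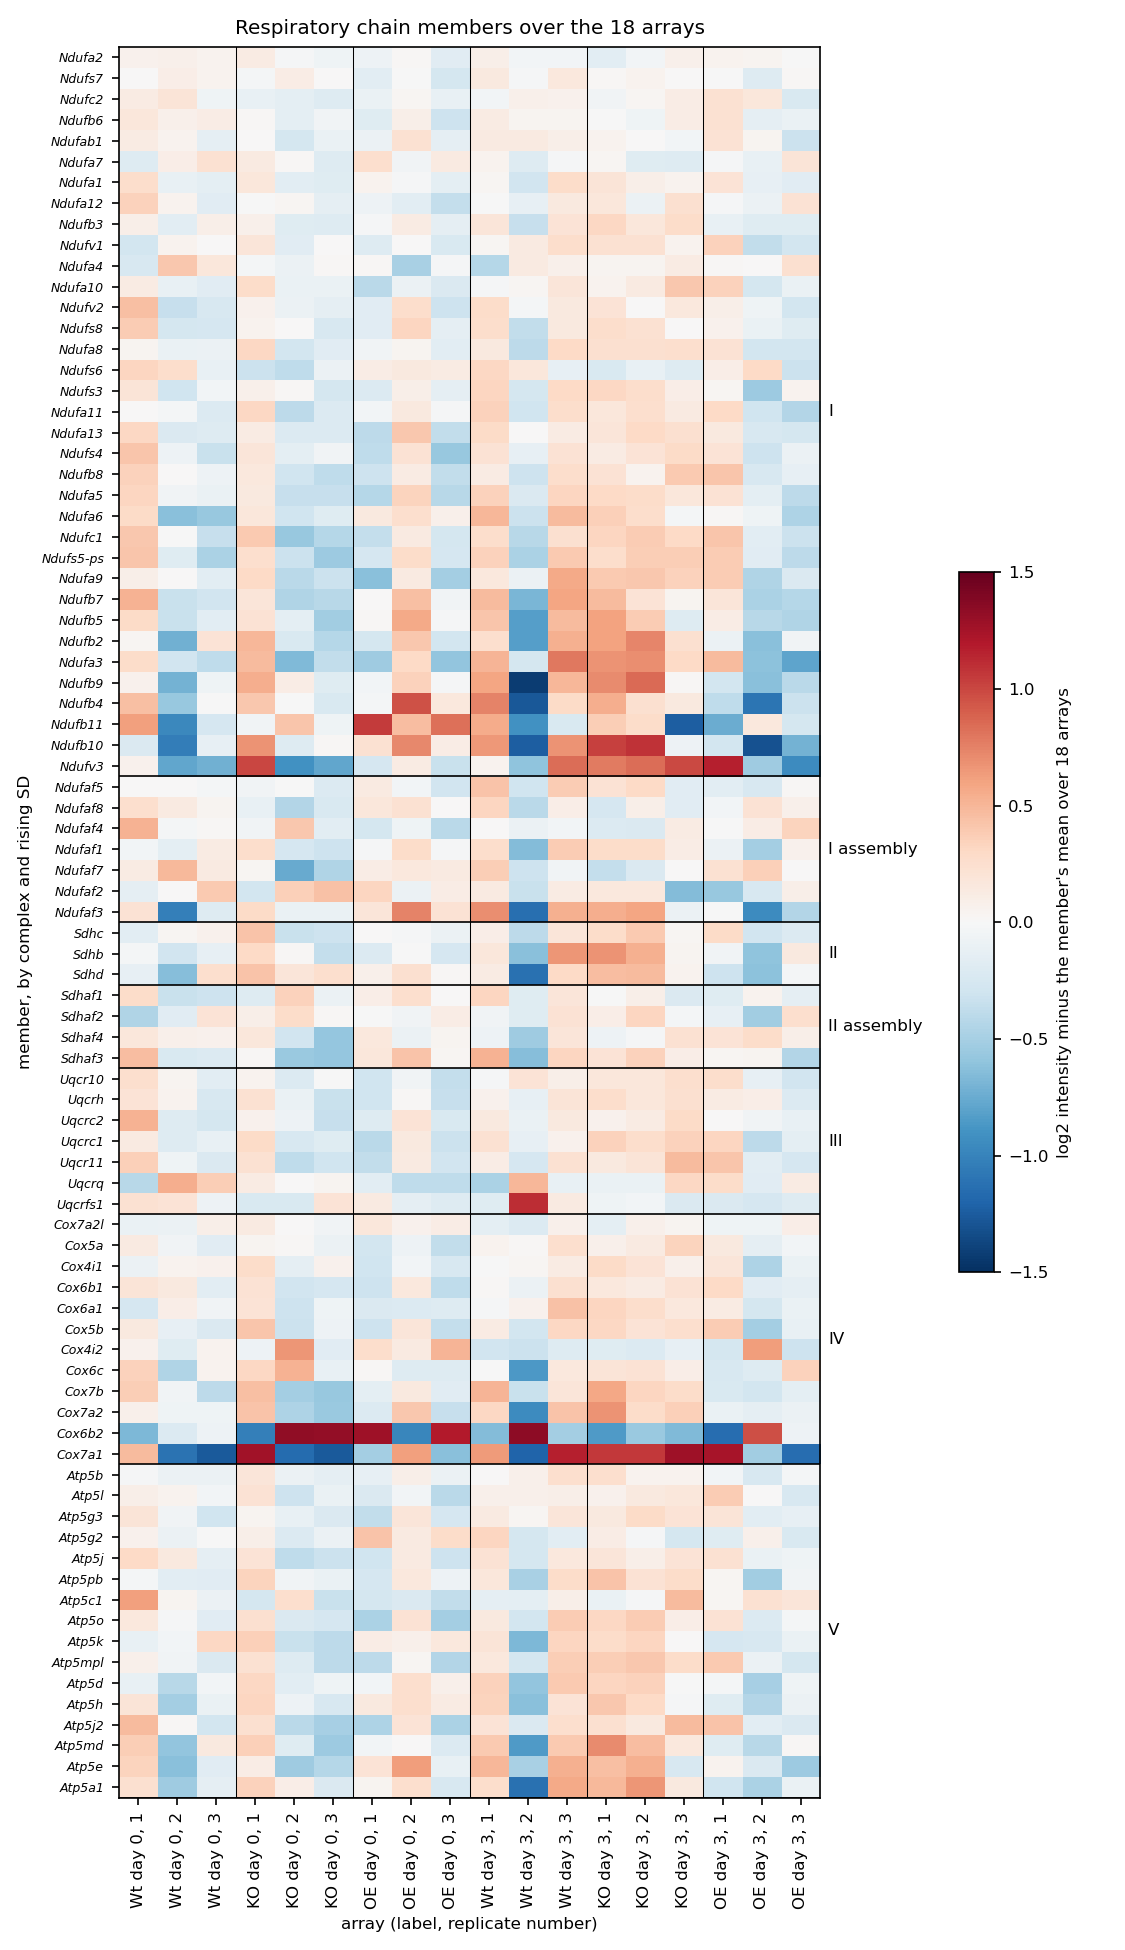
Log2 intensity of each of the 84 members minus its own mean over the 18 arrays (colour, red above and blue below), with members in rows by complex and by rising SD, and arrays in columns by label. Cox7a1 and Cox6b2 at the foot of complex IV have the strongest colours, with Cox7a1 red and Cox6b2 blue on all 3 arrays of KO day 3, and most other rows are pale.

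Complex I takes electrons from NADH, and its measured members are accessory subunits and core subunits around the flavin and iron-sulphur centres. Their mean ran from 10.81 on Wt day 3 replicate 2 to 11.42 on KO day 3 replicate 1, a span of 0.61. The core subunit Ndufv1, which carries the flavin, ran from 11.79 on OE day 3 replicate 2 to 12.50 on OE day 3 replicate 1. Ndufa2, an accessory subunit, was the steadiest member of all, with an SD of 0.082 and values of 12.22 to 12.51. One member, Ndufs5-ps, is annotated as a pseudogene of a complex I subunit, and signal from its parent gene was not tested.

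Ndufv3, an accessory subunit beside the flavoprotein, had the widest SD of complex I, 0.754. Its log2 values were 11.99, 11.15 and 11.21 on the Wt day 0 arrays, 12.93, 11.01 and 11.14 on KO day 0, and 11.68, 12.05 and 11.59 on OE day 0. At day 3 they were 11.98, 11.32 and 12.76 in Wt, 12.71, 12.76 and 12.91 in KO, and 13.09, 11.39 and 10.98 in OE. The 5 other groups overlapped each other, and in KO at day 3 all 3 arrays were high, and each of KO day 0, Wt day 3 and OE day 3 had 1 array at 12.76 or above. A second Ndufv3 probe followed the first over the arrays with a Pearson r of 0.97, as a description over 18 arrays.

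Ndufb10, an accessory subunit of the membrane arm, had an SD of 0.733 and a different order of arrays. Its values were 8.76, 7.93 and 8.85 in Wt, 9.65, 8.78 and 8.99 in KO and 9.20, 9.70 and 9.09 in OE at day 0. At day 3 they were 9.62, 7.74 and 9.64 in Wt, 10.0, 10.06 and 8.90 in KO and 8.69, 7.67 and 8.27 in OE. Its 3 lowest arrays, replicate 2 of OE day 3, of Wt day 3 and of Wt day 0, were the 3 arrays with the fewest detected probes, 16974, 17437 and 17682. The same 3 arrays were the lowest for 9 of 84 members, Ndufb10, Ndufb2, Ndufb4, Ndufb9, Ndufaf3, Sdhd, Atp5a1, Atp5d and Atp5h, beside 1.16% of all genes tested. The part of the number of detected probes in these members' values was not tested. A second Ndufb10 probe had an r of 0.92 with the first.

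Among the assembly factors of complex I, which build the complex and do not stay in it, the mean ran from 8.05 on Wt day 3 replicate 2 to 8.82 on Wt day 3 replicate 1. Ndufaf3 varied most, with an SD of 0.578 and values of 5.09 on Wt day 3 replicate 2 to 6.97 on OE day 0 replicate 2. Ndufaf2 came next, with values of 8.37 to 9.45 and its lowest arrays at KO day 3 replicate 3 and OE day 3 replicate 1. Ndufaf5 was the steadiest, with an SD of 0.219.

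Complex II, succinate dehydrogenase, had the widest span of any complex mean, 1.18 over 3 measured subunits, from 9.67 on Wt day 3 replicate 2 to 10.85 on KO day 3 replicate 1. Sdhd, a membrane anchor, was at 8.21, 7.69 and 8.58 in Wt, 8.76, 8.51 and 8.59 in KO and 8.41, 8.57 and 8.34 in OE at day 0. At day 3 it was at 8.46, 7.21 and 8.63 in Wt, 8.79, 8.80 and 8.38 in KO and 8.01, 7.71 and 8.30 in OE. Wt overlapped KO and OE at each day, and the 3 lowest arrays were those named for Ndufb10. Sdhb, the iron-sulphur subunit, ran from 10.37 on Wt day 3 replicate 2 to 11.66 on KO day 3 replicate 1. Sdhc, the other anchor, was the steadiest of the 3, at 11.43 to 12.24. The assembly factors of complex II ran from a mean of 8.49 to 9.10. Sdhaf3 varied most among them, at 7.29 to 8.45, followed by Sdhaf4 at 9.56 to 10.41, and Sdhaf1 varied least, at 8.53 to 9.21.

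Complex III, which passes electrons from ubiquinol to cytochrome c, was the one complex whose lowest mean was not on Wt day 3 replicate 2. Its mean ran from 10.50 on OE day 0 replicate 3 to 11.04 on KO day 3 replicate 3. The core proteins Uqcrc1 and Uqcrc2 ran from 11.25 to 12.00 and from 11.94 to 12.81. Uqcrq, a small subunit beside cytochrome b, had values of 6.76 on Wt day 3 replicate 1 to 7.78 on Wt day 0 replicate 2, and Uqcr10 was the steadiest, at 13.16 to 13.79. The probe for Uqcrfs1, the Rieske iron-sulphur protein, was detected on 4 of 18 arrays and on 0 of 3 in OE at either day. Its log2 values of 4.29 to 5.64 include the highest SD of complex III, and no difference is given for it.

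**Figure D2:**
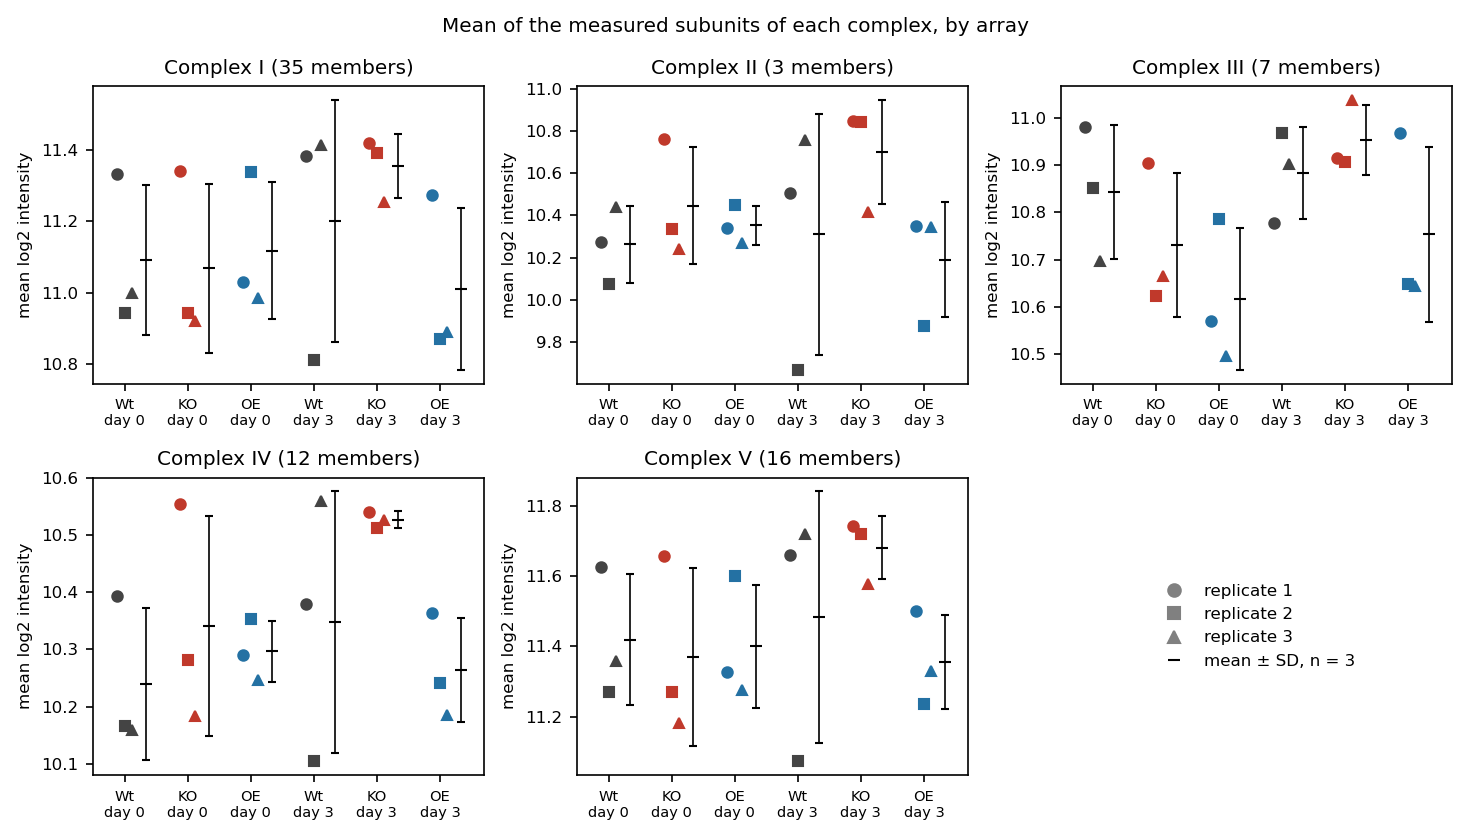
Mean log2 intensity of the measured subunits of complexes I to V on each array, with the 6 labelled groups on the horizontal axis, 1 symbol per array and the group mean ± SD (n = 3) beside it. In each panel arrays of 1 label lie far apart, as in complex II, where Wt day 3 spans 9.67 to 10.76.

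Complex IV, cytochrome c oxidase, held the 2 members with the widest spans, Cox7a1 and Cox6b2. Cox7a1, the heart and muscle isoform, was at 9.62, 8.04 and 7.89 in Wt, 10.40, 7.99 and 7.89 in KO and 8.64, 9.77 and 8.51 in OE at day 0. The day 3 values were 9.79, 7.95 and 10.31 in Wt, 10.20, 10.21 and 10.42 in KO and 10.38, 8.62 and 8.0 in OE. It was thus high on 1 of 3 arrays in each day 0 group and in OE day 3, on 2 of 3 in Wt day 3, and on 3 of 3 in KO day 3. Its whole span was 2.53 log2 units, or 5.79-fold. Within the sets of closest arrays it spanned at most 0.167, and within a labelled group up to 2.52.

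Cox6b2, the isoform known from testis, had its 9 lowest arrays where Cox7a1 had its 9 highest, though 3 arrays were low for both. Its values were 5.33, 5.80 and 5.93 in Wt, 4.98, 7.33 and 7.32 in KO and 7.28, 5.03 and 7.19 in OE at day 0. At day 3 they were 5.36, 7.35 and 5.50 in Wt, 5.15, 5.45 and 5.34 in KO and 4.86, 6.98 and 5.93 in OE. The high arrays were replicates 2 and 3 of KO day 0, replicates 1 and 3 of OE day 0 and replicate 2 of both Wt and OE at day 3, all at 6.98 or above, with the other 12 at 5.93 or below. Among those 12, replicates 2 and 3 of Wt day 0 and replicate 3 of OE day 3 were also low for Cox7a1. Its probe was dim, with deposited intensities of 107 to 283, and its span of 2.49 was 1.07 in the authors' deposited processed values and 1.14 without background correction. It was detected on all 18 arrays.

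The partner isoforms moved less. Cox7a2, the widely expressed form of the same subunit, was at 8.88, 8.73 and 8.74 in Wt, 9.22, 8.34 and 8.25 in KO and 8.60, 9.20 and 8.46 in OE at day 0. At day 3 it was at 9.11, 7.86 and 9.22 in Wt, 9.47, 9.07 and 9.15 in KO and 8.70, 8.66 and 8.71 in OE. Its high arrays included those of Cox7a1, apart from OE day 3 replicate 1, and Wt overlapped KO and OE at each day. Cox6b1, the ubiquitous form of the Cox6b subunit, was at 13.25, 13.20 and 12.90 in Wt, 13.27, 12.77 and 12.80 in KO and 12.74, 13.22 and 12.67 in OE at day 0. On the day 3 arrays it was at 13.07, 12.97 and 13.30 in Wt, 13.22, 13.17 and 13.27 in KO and 13.35, 12.88 and 12.92 in OE. All 6 groups of Cox6b1 overlapped within its span of 0.682.

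Cox4i1, the main form of the largest nuclear subunit, was at 13.29, 13.43 and 13.45 in Wt, 13.65, 13.25 and 13.44 in KO and 13.08, 13.34 and 13.14 in OE at day 0. Its day 3 values were 13.37, 13.40 and 13.51 in Wt, 13.67, 13.58 and 13.46 in KO and 13.56, 12.92 and 13.28 in OE. Wt overlapped KO and OE at each day, and its array order differed from that of Cox7a1. Cox4i2, the low-oxygen form, was detected on 4 of 18 arrays, KO day 0 on 1 of 3, OE day 0 on 2 of 3 and OE day 3 on 1 of 3, with values of 4.23 to 5.21 that give no level elsewhere. The hypoxia-induced list, with 11 of 12 genes measured, had means of 6.97 to 8.27 over the arrays. Its part in the values of Cox4i2 was not tested.

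Cox6a1, the non-muscle form of its subunit, was at 11.48, 11.83 and 11.68 in Wt, 11.94, 11.42 and 11.67 in KO and 11.51, 11.53 and 11.54 in OE at day 0. The day 3 arrays gave 11.72, 11.79 and 12.17 in Wt, 12.05, 11.99 and 11.89 in KO and 11.86, 11.47 and 11.63 in OE. Wt overlapped KO and OE at each day. Cox7b, a small subunit, was at 7.89, 7.48 and 7.13 in Wt, 7.98, 7.02 and 6.95 in KO and 7.39, 7.68 and 7.36 in OE at day 0. On the day 3 arrays it was at 8.03, 7.19 and 7.71 in Wt, 8.10, 7.85 and 7.80 in KO and 7.30, 7.26 and 7.38 in OE. KO and OE did not overlap at day 3, and that pair was not among the comparisons made. The share of all genes without overlap in that pair is not given here.

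Ndufa4 was named as a complex I subunit and later placed in complex IV. It was at 12.67, 13.31 and 13.08 in Wt, 12.88, 12.82 and 12.93 in KO and 12.93, 12.42 and 12.89 in OE at day 0. Its day 3 values were 12.48, 13.05 and 12.99 in Wt, 12.95, 12.95 and 13.03 in KO and 12.92, 12.91 and 13.15 in OE. Its 3 lowest arrays, replicate 1 of Wt at both days together with replicate 2 of OE day 0, form 1 of the 6 sets of closest arrays. Cox7a2l, which helps join complexes III and IV into supercomplexes, was the steadiest member of the complex IV group, with an SD of 0.11. It was at 11.39, 11.40 and 11.58 in Wt, 11.63, 11.49 and 11.44 in KO and 11.66, 11.55 and 11.60 in OE at day 0. The day 3 values were 11.34, 11.29 and 11.57 in Wt, 11.34, 11.56 and 11.54 in KO and 11.43, 11.43 and 11.59 in OE, with all groups overlapping. The core-supporting subunits Cox5a and Cox5b ran from 12.83 to 13.53 and from 12.56 to 13.48.

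**Figure D3:**
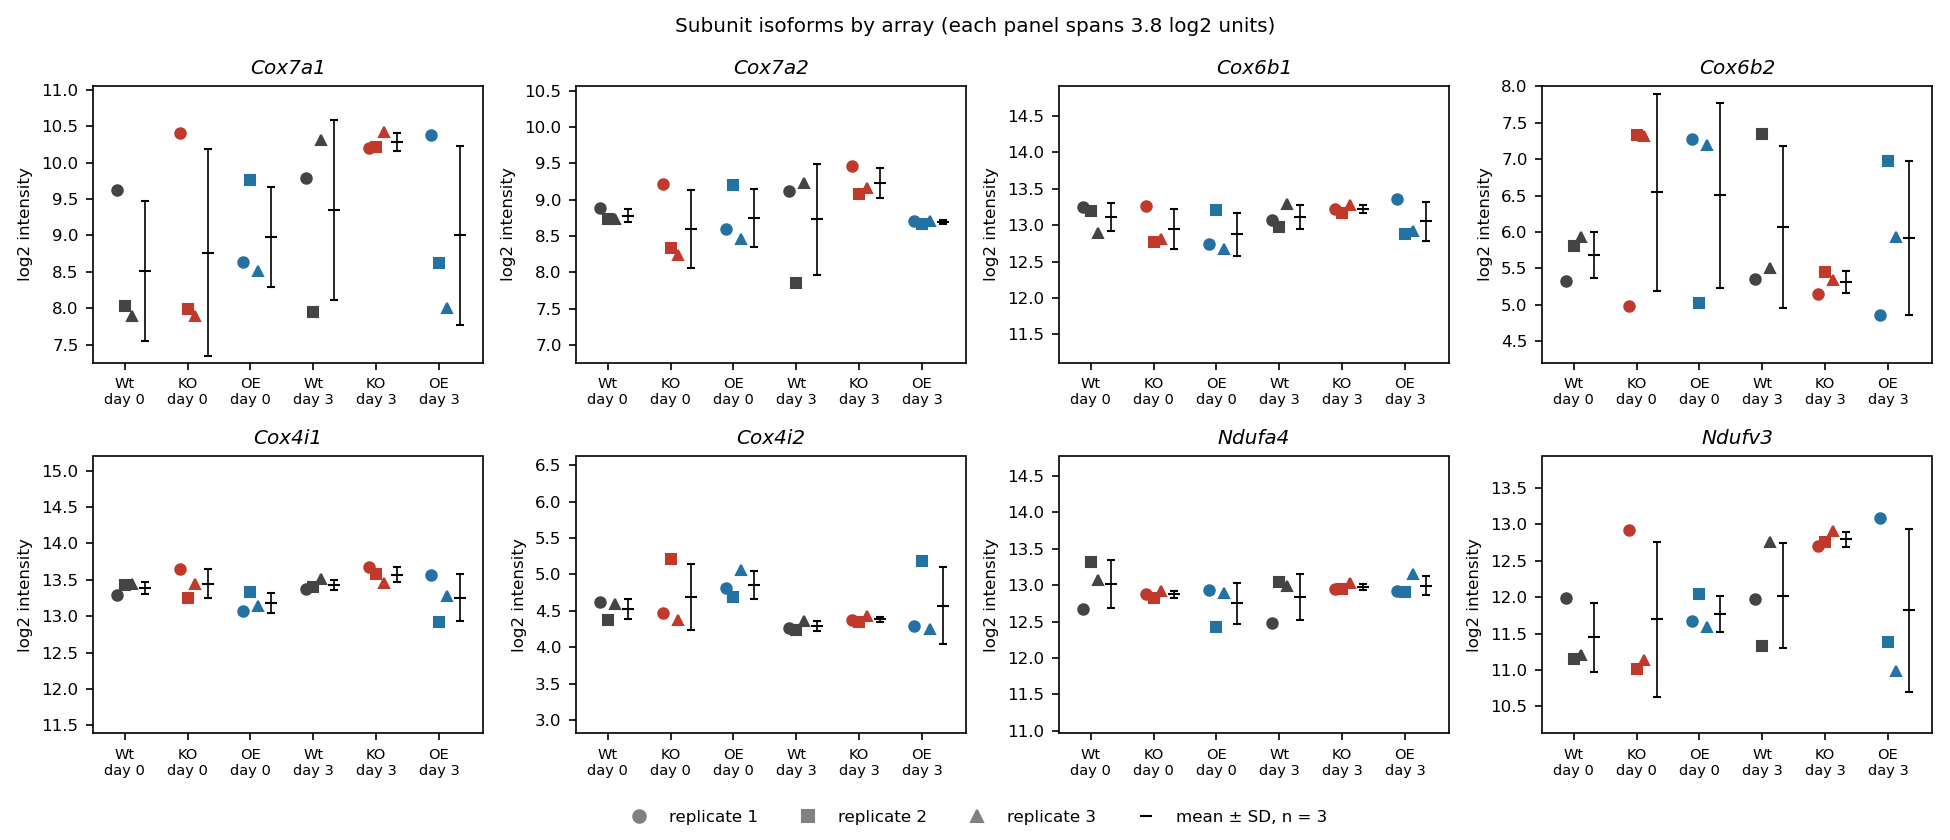
Log2 intensity of 8 members on each array, by labelled group, with 1 symbol per array and the group mean ± SD (n = 3) beside it, and every panel spanning the same range of log2 units. Cox7a1, Cox6b2 and Ndufv3 scatter widely within labels, whereas Cox6b1, Cox4i1 and Ndufa4 stay within spans of 0.682, 0.753 and 0.891.

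Complex V, the ATP synthase, had means of 11.07 on Wt day 3 replicate 2 to 11.74 on KO day 3 replicate 1. The catalytic subunit Atp5b was the steadiest, at 14.29 to 14.78 with an SD of 0.133. The other large subunit, Atp5a1, varied most, from 8.85 on Wt day 3 replicate 2 to 10.63 on KO day 3 replicate 2, and is among the members lowest on the arrays with the fewest detected probes. A second, dimmer Atp5a1 probe had an r of 0.276 with the first over the 18 arrays. Atp5e, the epsilon subunit, ran from 5.98 to 7.24, Atp5c1, the rotating gamma subunit, from 12.27 to 13.26, and Atp5o, of the stalk, from 12.84 to 13.73.

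Atp5g2 and Atp5g3 encode the same protein of the c-ring through different precursors. Atp5g3 was at 14.38, 14.12 and 13.88 in Wt, 14.23, 14.06 and 13.96 in KO and 13.81, 14.37 and 13.93 in OE at day 0. At day 3 it was at 14.32, 14.21 and 14.36 in Wt, 14.32, 14.47 and 14.39 in KO and 14.38, 14.02 and 14.05 in OE. Its 9 highest arrays were those of Cox7a1, though its span was 0.652. Atp5g2 was at 10.82, 10.67 and 10.75 in Wt, 10.85, 10.55 and 10.66 in KO and 11.18, 10.89 and 11.03 in OE at day 0. The day 3 arrays gave 11.07, 10.50 and 10.59 in Wt, 10.86, 10.73 and 10.49 in KO and 10.58, 10.83 and 10.52 in OE. The OE day 0 arrays lay above those of Wt and KO at day 0 and above those of OE at day 3, without overlap. How large a share of all genes separates these groups is not given here.

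The members were next set beside the muscle program. Muscle creatine kinase, Ckm, was at 10.87 to 11.39 on 9 arrays and at 6.78 to 8.05 on the other 9. The 9 higher arrays were all 3 of KO day 3, replicates 1 and 3 of Wt day 3, replicate 1 of OE day 3, and at day 0 replicate 1 of Wt, replicate 1 of KO and replicate 2 of OE. Those were also the 9 highest arrays of 24 of 84 members, beside 10.2% of all genes tested, and the 9 lowest arrays of 1 member, Cox6b2, beside 9.95%. By complex they were 14 of 35 in complex I, 3 of 7 in complex III, 2 of 12 in complex IV (Cox7a1 and Cox5b) and 5 of 16 in complex V. None of the complex II subunits or of the assembly factors had this order. Over the 24 members the gap between the lowest of those 9 arrays and the highest of the others ran from 0.004 (Ndufs8) to 0.979 (Cox7a1). For Ckm it was 2.82. A small gap, such as 0.017 for Atp5g3 or 0.018 for Ndufa11, hardly separates the arrays. These are descriptions of arrays, with no test.

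**Figure D4:**
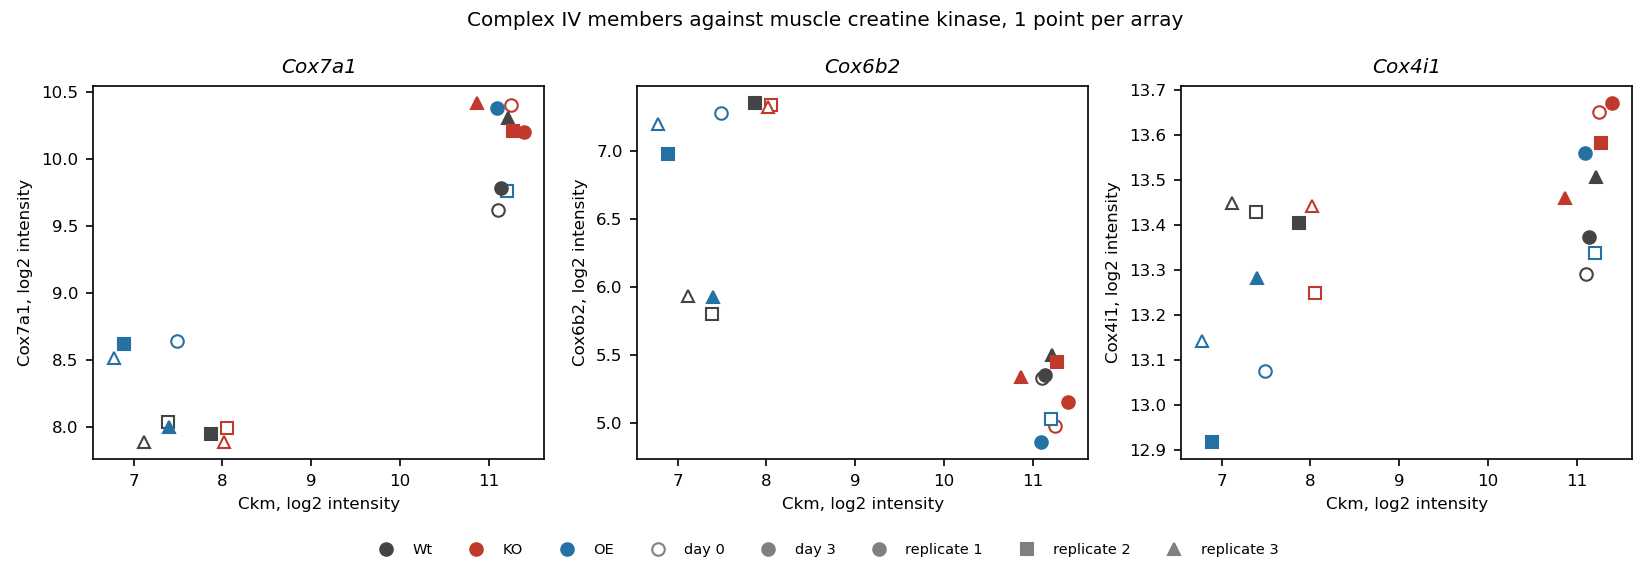
Log2 intensity of Cox7a1, Cox6b2 and Cox4i1 against that of Ckm, 1 point per array, with colour for the label, open symbols for day 0, filled symbols for day 3 and shape for the replicate. The 9 arrays with Ckm at 10.87 or above have the highest Cox7a1 and the lowest Cox6b2, and each label except KO day 3 has arrays on both sides.

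The muscle program list, of which 23 of 26 genes were measured, had means of 10.11 to 11.95 in Wt day 0, 10.32 to 11.99 in KO day 0 and 9.99 to 12.07 in OE day 0. At day 3 its means were 10.21 to 12.04 in Wt, 11.83 to 12.12 in KO and 9.88 to 11.86 in OE. The cell cycle list, with 15 of 20 genes measured, had means of 6.73 to 9.67 at day 0, 6.74 to 9.49 in Wt day 3, 6.76 to 7.07 in KO day 3 and 6.84 to 9.63 in OE day 3. The interferon-induced list, with 13 of 16 genes measured, had means of 9.67 to 9.74 on replicates 2 and 3 of KO day 0 and replicate 2 of Wt day 3, and of 5.23 to 7.58 on the other 15 arrays. The KO day 3 group was thus the one group with all arrays high in the muscle program and low in the cell cycle list. The part of these states in the members' values by label was not tested.

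Other genes of the pathway, from lists outside the rule, were set beside the same arrays. Cox8b, the muscle form of another complex IV subunit, spanned 10.28 to 13.03 and had the same 9 highest arrays as Ckm, as did Cyc1, the cytochrome c1 of complex III, at 11.18 to 11.96. Atpif1, the inhibitor of ATP synthase, had those arrays as its 9 lowest. Of 12 measured regulators of mitochondrial biogenesis, Ppargc1b had them as its 9 highest and Pprc1 as its 9 lowest. Of 14 measured genes of the citrate cycle and pyruvate dehydrogenase, 3 (Idh3a, Ogdh and Pdhb) had them highest and 2 (Idh3b and Suclg2) lowest. Cox17 and Cox19, which assemble complex IV, had them highest among 10 assembly genes, and 0 of 6 membrane carriers did. The mitochondrially encoded subunits of the list were not measured by name.

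The labelled comparisons asked how the members differed between Wt and KO, between Wt and OE, and between day 0 and day 3. In limma with Benjamini-Hochberg adjustment over 11921 genes, 0 of 84 members and 0% of all genes passed an adjusted p of 0.05 in each of the 9 comparisons. Counts at an unadjusted p below 0.05 and counts of positive differences are therefore given as descriptions. The 9 comparisons share arrays, Wt arrays above all, and are not independent.

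KO against Wt at day 0 gave mostly small negative values. The median difference over members was -0.057, beside -0.016 over all genes (0.099 and 0.133 under median scaling), and 31 of 84 members were positive, beside 47.6% of all genes. Muscle program genes went the other way, with 17 of 23 positive (list median 0.13). Positive too were 6 of 15 cell cycle genes (-0.23) and 13 of 13 interferon-induced genes (1.61). The part of these lists in the members' differences was not tested. An unadjusted p below 0.05 was found for 3 members and 6.4% of all genes. Ndufaf7, an assembly factor of complex I, had a difference of -0.64 (SE 0.213, adjusted p = 0.67), with 7.61, 7.97 and 7.61 in Wt and 7.51, 6.73 and 7.04 in KO. Ndufs6, a zinc-binding subunit, had -0.42 (SE 0.18, adjusted p = 0.76), and Ndufaf8, an assembly factor, had -0.40 (SE 0.181, adjusted p = 0.77). A second Ndufs6 probe, detected on 18 arrays, had an r of 0.291 with the first. It did not show the difference, with 8.89, 8.39 and 8.68 in Wt and 8.77, 8.54 and 8.65 in KO. The Ndufaf7 values of Wt and KO did not overlap, and the share of all genes without overlap is not given here. Leaving out replicate 1 of Wt turned the members' median to 0.029, with 50 positive, and leaving out replicate 3 of KO turned it to 0.027, with 49 positive. Leaving out replicate 1 of KO left 17 members positive. With weights for arrays, described below, 3 members (Cox6b2, Ndufaf7 and Sdhaf4) and 8.85% of all genes passed.

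KO against Wt at day 3 gave mostly positive values, with a median of 0.137 beside -0.008 over all genes, and 65 of 84 members positive beside 48.9%. In the same comparison 20 of 23 muscle program genes were positive (list median 0.58), as were 0 of 15 cell cycle genes (-0.81) and 0 of 13 interferon-induced genes (-2.05). In complex V 15 of 16 members were positive and in complex IV 11 of 12. The 11 include Cox4i2, which was detected on 0 of 3 arrays in both groups, so its sign is one of background. No member had an unadjusted p below 0.05, beside 2.29% of all genes. Cox7a1 averaged 9.35 ± 1.24 in Wt and 10.28 ± 0.122 in KO (SD, n = 3), a difference of 0.93 that was smaller than the spread in Wt. Cox6b2 had the lowest difference, -0.75. Sdhd had 0.56 (SE 0.314) and Ndufs6 -0.30 (SE 0.18), both with an adjusted p of 0.94. The second Ndufs6 probe was at 9.255, 8.255 and 8.764 in Wt and 8.916, 8.856 and 8.132 in KO, with overlap. Without Wt day 3 replicate 2 the median was 0.008 and 43 members were positive, and the differences were 0.23 for Cox7a1, -0.11 for Cox6b2 and 0.11 for Sdhd.

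OE against Wt at day 0 had a median of -0.034 beside -0.022 over all genes (0.163 and 0.135 under median scaling), with 32 of 84 members positive beside 46.6% of all genes, and 2 members with an unadjusted p below 0.05 beside 5.13%. All 7 complex III members were negative, though Uqcrfs1 was near background, detected on 1 of 3 arrays in Wt and 0 of 3 in OE. Ndufb11, a membrane-arm subunit of complex I, had the largest positive difference, 0.98 (SE 0.47, adjusted p = 0.95), with 6.66, 5.08 and 5.80 in Wt and 7.10, 6.52 and 6.88 in OE. These values overlapped on 1 Wt array, and the difference was 0.60 when replicate 2 of Wt day 0 was left out and 1.39 when replicate 1 was. The Ndufb11 probe ran from 4.82 to 7.10 over the 18 arrays, where the lowest value of any probe was 4.13. A second Ndufb11 probe was detected on 4 arrays only, and had an r of 0.315 with the first. Atp5c1 had -0.47 (SE 0.212) and Ndufaf4, an assembly factor, -0.41 (SE 0.191), each with an adjusted p of 0.95. A second Ndufaf4 probe, detected on 18 arrays, had an r of 0.084 with the first. It was at 8.62, 7.93 and 8.32 in Wt and 7.91, 8.48 and 8.15 in OE, with overlap. Of the muscle program genes 9 of 23 were positive (list median -0.05), as were 2 of 15 cell cycle genes (-0.26) and 4 of 13 interferon-induced genes (-0.43). The members' median turned to 0.035 without Wt day 0 replicate 1 and to 0.024 without OE day 0 replicate 3. With array weights 4 members (Cox6b2, Ndufa6, Ndufb11 and Uqcrq) and 8.06% of all genes passed.

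OE against Wt at day 3 gave mostly negative values, with a median of -0.142 beside 0.011 and 14 of 84 members positive beside 51.4% of all genes. In complex V 1 of 16 members was positive and in complex I 5 of 35. One member, Uqcrfs1, had an unadjusted p below 0.05, beside 3.95% of all genes, and it was near background. Ndufb10 had -0.79 (SE 0.48) and Ndufa3, an accessory subunit of complex I, -0.66 (SE 0.386), both with an adjusted p of 0.92. Leaving out 1 array moved Ndufb10 from -1.42 (without Wt day 3 replicate 2) to -0.47 (without Wt day 3 replicate 3). Positive members numbered 38 without Wt day 3 replicate 3, 25 without Wt day 3 replicate 1, and 28 without OE day 3 replicate 2 or replicate 3. In the same comparison 1 of 23 muscle program genes was positive (list median -0.80), as were 15 of 15 cell cycle genes (0.85) and 0 of 13 interferon-induced genes (-2.24).

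**Figure D5:**
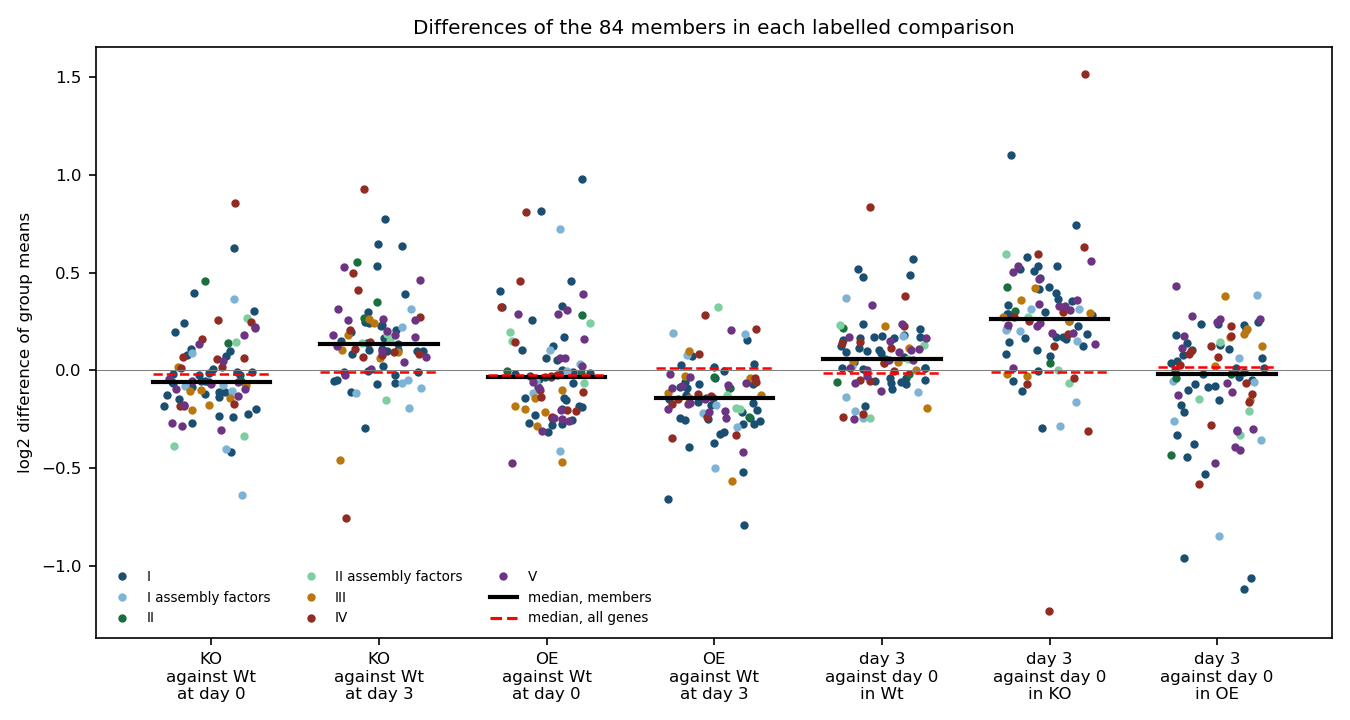
Log2 difference of group means for each of the 84 members (points, coloured by complex) in the 7 comparisons of 2 groups, with the median of the members (black bar) and of all 11921 genes (red dashed bar). Members lie mostly above 0 for KO against Wt at day 3 and for day 3 against day 0 in KO, and mostly below 0 for OE against Wt at day 3.

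Day 3 against day 0 in Wt set control cells labelled as kept in differentiation medium beside those in growth medium. The median was 0.059 beside -0.014, with 58 of 84 members positive beside 48% of all genes. Each label mixed arrays high and low in Ckm, with 11.11 on replicate 1 beside 7.39 and 7.12 at day 0. At day 3 replicate 2 was at 7.87, beside 11.13 and 11.22. In the same comparison 22 of 23 muscle program genes were positive (list median 0.71), as were 0 of 15 cell cycle genes (-0.98) and 12 of 13 interferon-induced genes (0.68). No member had an unadjusted p below 0.05, beside 3.99%. The smallest p-values were for Ndufa6, an accessory subunit, at 0.52 (SE 0.265), Cox6a1 at 0.23 (SE 0.173) and Atp5b at 0.17 (SE 0.138), each with an adjusted p of 0.9. Without Wt day 3 replicate 3 the median was -0.027 and 38 members were positive. With array weights Ndufa6 passed, beside 5.56% of all genes.

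Day 3 against day 0 in KO had the largest median of the 9 comparisons, 0.263 beside -0.007, with 71 of 84 members positive beside 49.1% of all genes. In the same comparison 21 of 23 muscle program genes were positive (list median 1.25), as were 0 of 15 cell cycle genes (-1.64) and 0 of 13 interferon-induced genes (-2.79), 12 of them with an unadjusted p below 0.05 and 0 with an adjusted p below it. The part of these lists in the members' differences was not tested. All 16 complex V members, all 3 of complex II and 31 of 35 of complex I were positive. An unadjusted p below 0.05 was found for 3 members and 8.32% of all genes. They were Ndufb3, an accessory subunit of the membrane arm, at 0.36 (SE 0.161), Cox7b at 0.60 (SE 0.275) and Atp5mpl, a small proteolipid of the ATP synthase, at 0.47 (SE 0.219), each with an adjusted p of 0.49. Cox7a1 had 1.52, from 8.76 ± 1.42 to 10.28 ± 0.122 (SD, n = 3), and Cox6b2 -1.23. The day 0 values of Cox7a1 in KO included 1 array inside the day 3 range. Leaving out 1 array gave medians of 0.179 (without KO day 0 replicate 3) to 0.402 (without KO day 0 replicate 1).

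Weights for arrays, estimated from how closely each array matched its labelled group, changed the calls of this comparison most. The weights were 0.256 for KO day 0 replicate 1 and 1.37 and 4.08 for KO day 0 replicates 2 and 3. With them 51 of 84 members passed an adjusted p of 0.05, 50 positive and 1 (Cox6b2) negative, beside 52.6% of all genes, so the members' share was near that of all genes. Weights of 0.239 to 0.315 were also given to replicate 1 of Wt day 0 and of OE day 3 and to replicate 2 of OE day 0 and of Wt day 3, and each of these lay on the other side of the Ckm range from its 2 group mates.

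Day 3 against day 0 in OE had a median of -0.019 beside 0.017, with 40 of 84 members positive beside 52.5% of all genes. Of the muscle program genes 9 of 23 were positive (list median -0.03), as were 12 of 15 cell cycle genes (0.19) and 4 of 13 interferon-induced genes (-0.46). An unadjusted p below 0.05 was found for 4 members, all negative, beside 4.57% of all genes. Ndufb10 had -1.12 (SE 0.48), Ndufb11 -1.06 (SE 0.47) and Atp5g2 -0.39 (SE 0.173), each with an adjusted p of 1. Ndufb4 was the fourth, and the limits given above for the Ndufb11 probe hold here too. Ndufb10 and Ndufb4 are among the members whose 3 lowest arrays, 1 of them OE day 3 replicate 2, had the fewest detected probes. The median turned to 0.078, 0.053 and 0.047 when replicate 2 of day 0, replicate 2 of day 3 and replicate 3 of day 3 were left out in turn.

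The last pair of comparisons set the change from day 0 to day 3 in KO and in OE against that in Wt, as interaction terms. For KO the median was 0.185 beside 0.027, with 69 of 84 members positive beside 52.9% of all genes, and 0 members with an unadjusted p below 0.05 beside 3.58%. The smallest p-values were for Sdhaf4 at 0.52 (SE 0.286), Atp5c1 at 0.48 (SE 0.3) and Cox6b2 at -1.61 (SE 1.041), each with an adjusted p of 1. Without Wt day 3 replicate 2 the median was 0.02 and Cox6b2 was at -0.97. Muscle program genes were positive in 19 of 23 (list median 0.42), cell cycle genes in 1 of 15 (-0.71) and interferon-induced genes in 0 of 13 (-4.32). For OE the median was -0.109 beside 0.018 over all genes (-0.363 and -0.15 under median scaling), with 32 of 84 members positive beside 51.8%, and 4 members with an unadjusted p below 0.05 beside 6.17%. Ndufb10 had -1.60 (SE 0.68), Ndufa6 -0.85 (SE 0.374) and Atp5c1 0.68 (SE 0.3), each with an adjusted p of 0.8, and Ndufaf4 was the fourth. The limit given above for Ndufaf4, a second probe with an r of 0.084 to the first, holds here too. Without Wt day 3 replicate 3 the OE median was 0.009. For OE 3 of 23 muscle program genes were positive (list median -0.675), as were 15 of 15 cell cycle genes (1.02) and 2 of 13 interferon-induced genes (-1.14).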

How the data were processed

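Total RNA of 18 samples in 6 groups of 3 was measured on Illumina mouse bead arrays. The authors deposited a non-normalized table of probe intensity with a detection p-value per array, per the file headers, and a processed table of intensity, whose normalization the labels and headers do not state, and neither do they name the scanner software. From the first, intensities were background-corrected from the detection p-values and quantile-normalized with an offset of 16 (neqc, limma 3.58.1, R 4.3.3), then logged to base 2. No depth exists for arrays; the 3 arrays a group limit the precision. Of 45281 probes, 22365 were detected (p below 0.05 on 3 or more arrays), 19031 of them with 1 symbol, for 11921 genes. Symbols come from the platform annotation: 34885 probes had 1 symbol, 18 several and 10378 none, and 34807 were matched by Entrez identifier. For 29 members several probes were kept: of 39 other probes, 19 had r above 0.7 with the one used and 4 had r below 0.

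Groups were compared with lmFit and eBayes on 1 mean per label over all 18 arrays (12 residual degrees of freedom, two-sided), with Benjamini-Hochberg adjustment over all genes. The procedure was tested on simulated data with independent noise around 1 mean per gene and known changes added. That test does not cover labels whose arrays lie far apart, as they do here. The labels do not say that a replicate number marks a shared culture. Deviations of same-numbered arrays from their group means correlated at 0.367 to 0.61 in Wt and KO at day 0. In both groups replicate 1 was the array with high Ckm (11.11 and 11.25). A shared culture and that state cannot be told apart here. In each other pair of groups checked, the lowest correlation was negative, and the highest of all was 0.693 (Wt at day 0 and day 3). Genes named are tissue-specific isoforms, core subunits, the 2 most and 1 least variable members per complex, and the 3 smallest p-values per comparison. Members and lists were chosen with earlier results of these data known. Promoters come from RefSeq (73 of 84 members matched); protein sequences are not used here. Alternatives were other background corrections, normalizations, filters and probe rules, array weights, a replicate block and leaving out each array.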

Additional observations from a re-analysis of the deposited data

How the results depend on the processing

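The differences of the 3 members with the smallest p in each comparison, and those given for Cox7a1 and Cox6b2, kept their sign under every alternative run. They include Uqcrfs1 in KO and in OE against Wt at day 3, whose sign is not read because it is near background. With array weights the members past the threshold numbered 3 for KO against Wt at day 0, 4 for OE against Wt at day 0, 1 for day 3 against day 0 in Wt and 51 for day 3 against day 0 in KO, in place of 0, and 0 in the other 5 comparisons. Among the differences with the 3 smallest p in a comparison, 6 passed there. Those of Cox7a1 and Cox6b2 for day 3 against day 0 in KO passed as well. Median scaling moved the median of all genes by over 0.1: it was 0.133 for KO against Wt at day 0 (members 0.099), 0.135 for OE against Wt at day 0 (members 0.163), -0.105 for day 3 against day 0 in OE (members -0.185) and -0.15 for the OE change against the Wt change (members -0.363). Spans of complex means under median scaling were 1.093 for complex I, 1.617 for II, 0.904 for its assembly factors, 0.868 for IV and 1.157 for V. The span of the complex I assembly factors was 0.534 without background correction and 0.511 in the authors' processed values, where that of complex IV was 0.624. The count of members with the 9 highest arrays of Ckm, 24, ran from 17 (median scaling, 15 of them shared, and Cox6b2 no longer the reverse) to 33 (the authors' values).

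Leaving out 1 array left 0 members past the threshold in all 9 comparisons. Medians over members then ran from -0.152 to 0.029 and 0.008 to 0.23 for KO against Wt at days 0 and 3, from -0.108 to 0.035 and -0.276 to -0.022 for OE against Wt, and from -0.027 to 0.216, 0.179 to 0.402 and -0.103 to 0.078 for day 3 against day 0 in Wt, KO and OE. They ran from 0.02 to 0.281 and -0.195 to 0.009 for the changes of KO and OE against that of Wt. The replicate number was also used as a block, in a fit to all arrays and in a 2-group fit to Wt and KO at day 0. The median over members for KO against Wt at day 0 stayed at -0.057 with 0 members past the threshold. No call changed in any comparison. That 2-group fit was added after the data were seen. Without KO day 0 replicate 1, day 3 against day 0 in KO gave 2.34 for Cox7a1 and -2.01 for Cox6b2. Array signal limits Cox4i2, Uqcrfs1 and Gata4, which are near background.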
